A study of Homo sapiens with 34 samples.

Results

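Chromatin binding was compared here at genomic regions that held a peak of the TAZ-CAMTA1 fusion and a peak of YAP5SA, but no peak of TAZ4SA, the active form of the fusion's own amino-terminal parent. Peaks of the 6 Flag-tagged constructs on chromosomes 1 to 22 and X were merged where they shared at least 1 bp, and merged regions were selected on the presence of a TAZ-CAMTA1 and a YAP5SA peak and the absence of a TAZ4SA peak. The choice thus rests on the peak calls of these 3 lists. Of 6543 merged regions, 325 qualified, or 4.97%. They held 326 of 1184 TAZ-CAMTA1 peaks on chromosomes (27.5%) and 328 of 3754 YAP5SA peaks (8.74%). Among the 658 regions with both TAZ-CAMTA1 and YAP5SA, they were 49.4%, and the other 333 also held a TAZ4SA peak. The 325 regions are called YAP5SA-matched sites below, and the 333 regions are called triple sites.

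All groups were SW872 cells, a human liposarcoma line, stably transduced with a construct or with an empty vector (EV). TAZ-CAMTA1 is the fusion protein of most epithelioid hemangioendotheliomas, a vascular sarcoma, and YAP-TFE3 is that of a smaller group of these tumors. In TAZ4SA and YAP5SA the serines that LATS kinases phosphorylate are changed to alanine, which keeps TAZ and YAP active, and CAMTA1 and TFE3 were the full-length carboxy-terminal parents. Each construct had 3 Flag immunoprecipitations and 2 input libraries, and EV cells had 2 IgG immunoprecipitations and 2 inputs. The sample descriptions place CAMTA1 cells before confluence at collection and the other cells near it, whereas the study's methods give near confluence for all. The constructs were introduced into a cell line and expressed from a vector, so that binding was measured for the tagged protein and not for an endogenous one.

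TAZ and YAP are paralogous coactivators at the end of the Hippo pathway. They have no DNA-binding domain of their own and reach chromatin mainly through the TEAD transcription factors, which bind their amino-terminal portion. Phosphorylation by LATS keeps them in the cytoplasm. Both fusions keep the TEAD-binding portion and gain the carboxy terminus of another transcription factor. CAMTA1 is a calmodulin-binding transcription activator, and TFE3 is a basic helix-loop-helix factor of the MiT family.

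Since replicates were pooled by the authors ahead of peak calling, each construct has a single list and no spread between replicates can be given. Shares are given with 95% Wilson intervals, and medians with 95% binomial intervals of the order statistics. Both cover counting error only and treat regions as independent. No test between constructs was run. Fold enrichment is the authors' ratio of the fragments stacked at a peak's summit to those of its local background, after 1 is added to both. As recovered from the peak values, fragments are first scaled by 0.307 in YAP5SA, 0.356 in YAP-TFE3 and 0.355 in TFE3. The added 1 lowers the ratio more at a lower background, so that values of different lists are not on exactly the same scale. The −log10 q is the authors' measure of how far a peak stood above background. Where a region held several peaks of a list, the peak with the highest −log10 q was used.

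The lists differed in depth. Recovered from the peak values, the TAZ4SA and TAZ-CAMTA1 pools covered a base with 2.33 and 2.52 fragments on average, against 10.7 in the YAP5SA pool and 10.5 in the YAP-TFE3 pool. The YAP5SA list held 3857 peaks and the TAZ4SA list 1217. A site in the YAP5SA list and outside the TAZ4SA list was thus seen by the list with 4.59 times the raw coverage. After the scaling given above, the genome-wide background was 3.28 in YAP5SA and 2.33 in TAZ4SA. Depth and protein cannot be told apart in a comparison of these lists. TAZ-CAMTA1 and TAZ4SA were of similar depth. On chromosomes 1 to 22 and X the EV IgG list had 4 peaks. None of the 325 sites overlapped one. A count of 0 is taken to allow up to 3 sites, here a share of up to 0.923%, against 0.0306% of all regions.

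At YAP5SA-matched sites, TAZ-CAMTA1 and YAP5SA had similar fold enrichment, as defined above. Fold enrichment of TAZ-CAMTA1 ran from 1.78 to 15.9, with a median of 5.38 (5.09 to 5.68), and that of YAP5SA ran from 2.36 to 13.3, with a median of 5.39 (5.18 to 5.68). At triple sites the medians were higher in both lists, 6.27 (5.94 to 6.56) for TAZ-CAMTA1 and 6.86 (6.32 to 7.18) for YAP5SA. TAZ-CAMTA1 regions with neither YAP5SA nor TAZ4SA had a lower median, 4.39 (4.26 to 4.54). In TAZ-CAMTA1 strength the YAP5SA-matched sites thus lay between the sites shared by all 3 proteins and the sites outside both active parents. Fold enrichment above 10 was reached by TAZ-CAMTA1 in 26 of 325 YAP5SA-matched sites, or 8% (5.52% to 11.5%), and in 48 of 333 triple sites, or 14.4% (11.0% to 18.6%). For YAP5SA it was 12 sites, or 3.69% (2.12% to 6.34%), against 39, or 11.7% (8.69% to 15.6%). Fold enrichment was above 10 for both proteins at 2 YAP5SA-matched sites, a count that was not compared with that of unrelated heights. These values entered the choice of regions through the peak threshold and are given as a description.

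**Figure D1:**
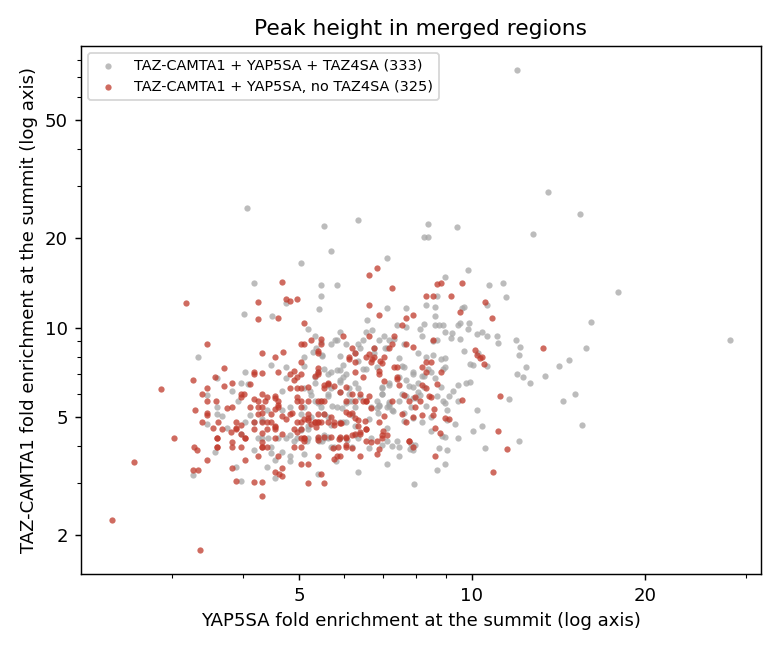
Fold enrichment at the summit of YAP5SA (horizontal, log axis) and TAZ-CAMTA1 (vertical, log axis), 1 point per merged region. Regions without a TAZ4SA peak (red, 325) fill the lower part of the cloud of regions with one (grey, 333), and none of the red points exceeds 15.9 for TAZ-CAMTA1 or 13.3 for YAP5SA.

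The same order appeared in the number of fragments behind the peaks. A TAZ-CAMTA1 summit had a median of 21 fragments at YAP5SA-matched sites (20 to 22), 27 at triple sites (24 to 28) and 16 at regions with neither active parent (16 to 17). A YAP5SA summit had a median of 73 fragments at YAP5SA-matched sites (70 to 77) and 94 at triple sites (89 to 98). Both peaks had a q below 0.01 in 299 of 325 YAP5SA-matched sites, or 92.0% (88.5% to 94.5%). At triple sites this held for 321 of 333, or 96.4% (93.8% to 97.9%). Most of the sites therefore did not depend on peaks in the permissive range between q of 0.01 and 0.1.

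The ratio of TAZ-CAMTA1 to YAP5SA fold enrichment had a median of 1.03 at YAP5SA-matched sites (0.958 to 1.08) and 0.923 at triple sites (0.886 to 0.987). It was above 1 in 171 of 325 YAP5SA-matched sites, or 52.6% (47.2% to 58.0%), and in 146 of 333 triple sites, or 43.8% (38.6% to 49.2%). The heights followed each other weakly across sites. Spearman's rho of the fold enrichments was 0.306 over 325 YAP5SA-matched sites and 0.338 over 333 triple sites. All points come from a single cell line, and the part of local base composition and copy number in these values was not tested.

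The highest-ranked peaks of either list lay outside the YAP5SA-matched sites. The first such site stood at rank 33 of 1224 in the TAZ-CAMTA1 list by q. Of the 29 regions on chromosomes above it, 27 held a TAZ4SA peak and 20 were triple sites. Over all 1178 TAZ-CAMTA1 regions, 384 held a TAZ4SA peak. In the YAP5SA list the first such site was at rank 49 of 3857. Of the 18 regions on chromosomes above it, 16 held a TAZ4SA peak and 12 were triple sites. Over all 3745 YAP5SA regions, 821 held a TAZ4SA peak. Since no YAP5SA-matched site can lie above the first, the counts above it were partly fixed by the choice of the rank. Sites of the fusion without TAZ4SA were found in every part of the lists below that.

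When all 1178 TAZ-CAMTA1 regions were ranked by q and split into 4 bins of equal size, the share of TAZ-CAMTA1 and YAP5SA regions that lacked TAZ4SA was 36.4% (30.4% to 42.8%) in the strongest bin. It was 50.5% (43.6% to 57.4%), 63.8% (55.6% to 71.3%) and 57.0% (46.8% to 66.6%) in the following bins. Ranked by YAP5SA instead, the shares were 38.1% (33.0% to 43.5%), 48.1% (40.5% to 55.8%), 70.9% (61.8% to 78.6%) and 72.3% (60.4% to 81.7%). Weaker sites thus lacked a TAZ4SA peak more often than the strongest, in either ranking. Still, 83 YAP5SA-matched sites lay in the strongest TAZ-CAMTA1 bin and 123 in the strongest YAP5SA bin.

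**Figure D2:**
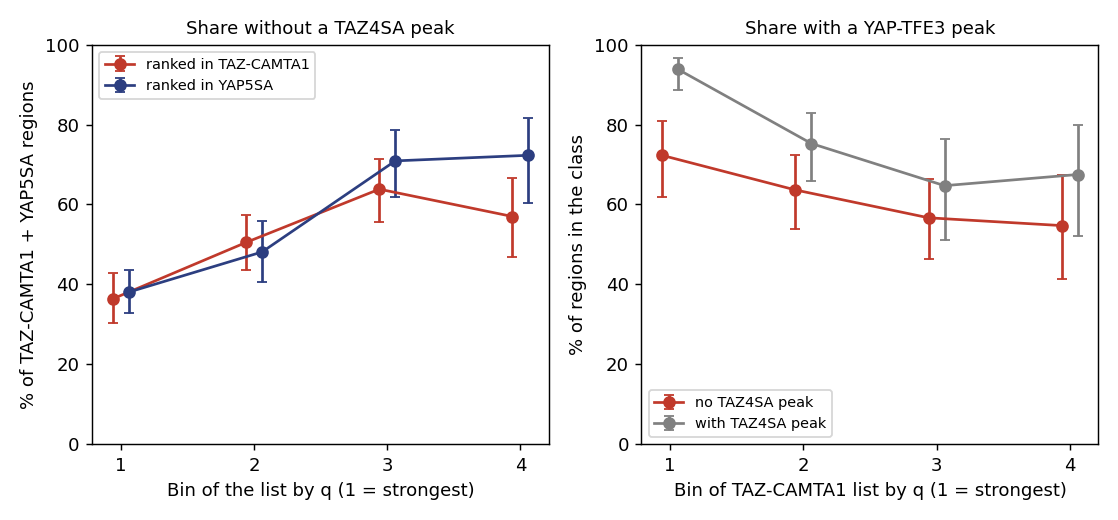
Left, percent of regions with both TAZ-CAMTA1 and YAP5SA that held no TAZ4SA peak, by bin of the TAZ-CAMTA1 (red) or YAP5SA (blue) list; right, percent with a YAP-TFE3 peak, by bin of the TAZ-CAMTA1 list, for regions without (red) and with (grey) TAZ4SA. Bars are 95% Wilson intervals; the share without TAZ4SA is 36.4% in the strongest and 57.0% in the weakest TAZ-CAMTA1 bin, and the share with YAP-TFE3 is 72.3% (red) and 93.8% (grey) in the strongest.

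The TAZ4SA list sets how low a signal it could have shown. Its weakest peak on chromosomes had a −log10 p of 4.67, and at the genome-wide background the smallest called summit had 11 fragments. TAZ-CAMTA1 summits of the YAP5SA-matched sites, scaled by 0.923 to the coverage of TAZ4SA, reached that p-value in 318 of 325 cases, which their own selection at a similar depth fixed in advance. Lowered to 0.75 of their height, 238 summits reached it (73.2%), and lowered to 0.5, 95 (29.2%). A TAZ4SA signal at 0.5 of the height of the fusion would therefore have been missing from the list at most of these sites. Whether TAZ4SA was absent there or below its threshold cannot be told apart from these lists. At triple sites the ratio of TAZ4SA to TAZ-CAMTA1 fold enrichment had a median of 1.16 (1.11 to 1.24) and a lower quartile of 0.889. Those sites were chosen to hold a TAZ4SA peak, which cuts off low ratios, so the ratio says nothing about sites without one.

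The regions next to the limits of the rule were as follows. The YAP5SA-matched sites with the lowest TAZ-CAMTA1 −log10 q were chr2:1759470-1759903 at 1.06, chr9:132524109-132525255 at 1.12 and chr9:90574558-90575121 at 1.24. By YAP5SA −log10 q the lowest was chr5:16889850-16890937 at 1.1. Just outside the rule, the weakest TAZ4SA peak of a triple site, at chr7:100100569-100101676, had a −log10 q of 1.36 and 19 fragments at its summit. A TAZ-CAMTA1 region at chr8:13051438-13051855 missed a YAP5SA peak by 45 bp.

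Most YAP5SA-matched sites were also occupied by the other fusion. Peaks of TAZ-CAMTA1, YAP5SA and YAP-TFE3 without those of a full-length parent made up 198 of the 325 sites, and peaks of TAZ-CAMTA1 and YAP5SA alone made up 122. A YAP-TFE3 peak was present in 203 of 325, or 62.5% (57.1% to 67.6%), against 50.7% of all merged regions, 51.3% of all TAZ-CAMTA1 regions and 36.3% of all YAP5SA regions. All merged regions include those formed by YAP-TFE3 peaks themselves, which raises their share. At triple sites the share was 80.8% (76.2% to 84.7%). It was 40.0% (35.7% to 44.4%) at regions with YAP5SA and TAZ4SA but no TAZ-CAMTA1, and 22.4% (18.8% to 26.4%) at TAZ-CAMTA1 regions outside both active parents. The small class with TAZ-CAMTA1 and TAZ4SA but no YAP5SA held YAP-TFE3 in 27 of 51, or 52.9% (39.5% to 65.9%). Regions with YAP5SA alone of these 3 proteins held a YAP-TFE3 peak in 26.7% (25% to 28.4%). The interval of the YAP5SA-matched sites lay below that of triple sites, overlapped that of the class of 51 and lay above those of the other 3 classes, and these differences were not tested. The YAP-TFE3 and YAP5SA lists were of similar depth, at 10.5 and 10.7 fragments per base, and the part of depth in these shares was not tested.

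**Figure D3:**
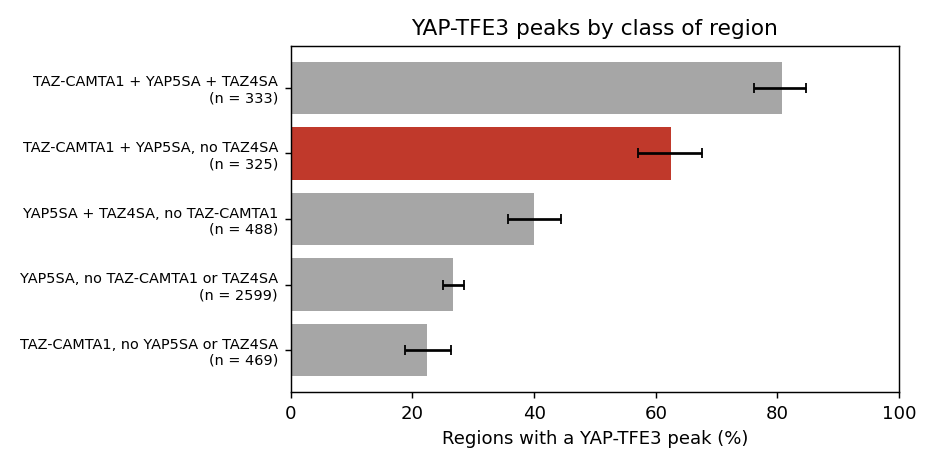
Percent of merged regions with a YAP-TFE3 peak, by which of TAZ-CAMTA1, YAP5SA and TAZ4SA also had a peak there; bars start at 0 and error bars are 95% Wilson intervals. The share is 62.5% at regions with TAZ-CAMTA1 and YAP5SA but no TAZ4SA (red), between 80.8% at regions with all 3 and 40.0% at regions with YAP5SA and TAZ4SA alone.

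The share with YAP-TFE3 was below that of triple sites in every bin of either ranking. In the strongest TAZ-CAMTA1 bin 60 of 83 YAP5SA-matched sites held YAP-TFE3, or 72.3% (61.8% to 80.8%), against 136 of 145 triple sites, or 93.8% (88.6% to 96.7%). In the second bin the shares were 63.6% (53.8% to 72.4%) and 75.3% (65.8% to 82.8%). They were 56.7% and 64.7% in the next bin and 54.7% and 67.5% in the weakest, with intervals that overlapped in each of these 3 bins. In the strongest YAP5SA bin the shares were 72.4% (63.9% to 79.5%) and 87.0% (81.6% to 91.0%). In the following YAP5SA bins they were 63.6% and 73.5%, 56.4% and 71.9%, and 44.7% and 61.1%, with overlapping intervals in each of these 3 bins.

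Sites with YAP-TFE3 were somewhat stronger in the other lists than sites without it. Median TAZ-CAMTA1 fold enrichment was 5.68 (5.11 to 5.85) in the 203 YAP5SA-matched sites with YAP-TFE3 and 5.03 (4.83 to 5.40) in the 122 without. The YAP5SA medians were 5.72 (5.39 to 6.04) and 5.03 (4.75 to 5.39). Median YAP5SA −log10 q was 9.41 (7.77 to 10.3) with YAP-TFE3 and 6.23 (5.49 to 7.77) without, and YAP5SA summits had 79 (72 to 84) and 67 (64 to 72) fragments. Where YAP-TFE3 was present, its fold enrichment had a median of 5.33 (5.03 to 5.48) and reached 14.7. Its height followed that of TAZ-CAMTA1 less closely than at triple sites, with Spearman's rho of 0.191 over 203 sites and 0.453 over 269. With YAP5SA the values were 0.288 and 0.267. TAZ-CAMTA1 fold enrichment reached 15.9 at the 203 sites and 73.8 at the 269. The part of this range in the difference in rho was not tested.

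Full-length CAMTA1 and TFE3 were almost absent. A CAMTA1 peak lay in 1 of 325 YAP5SA-matched sites, or 0.308% (0.0543% to 1.72%), against 2.38% of all regions, 0.255% of TAZ-CAMTA1 regions and 0.187% of YAP5SA regions. TFE3 peaks lay in 5 sites, or 1.54% (0.659% to 3.55%), against 4.55% of all regions, 0.934% of TAZ-CAMTA1 regions and 2.56% of YAP5SA regions. The shares of all regions include regions formed by peaks of CAMTA1 or TFE3 themselves, which raises them. All 5 sites with TFE3 also held YAP-TFE3. The parents of the carboxy-terminal portions were therefore found at these sites about as rarely as at TAZ-CAMTA1 regions in general.

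The only CAMTA1 site carried peaks of 5 constructs. At chr7:104652898-104653854 fold enrichment was 15.1 for TAZ-CAMTA1, 12.6 for CAMTA1 and 13 for YAP-TFE3, and lower for YAP5SA (6.61) and TFE3 (3.83). TAZ4SA had no peak there, and its nearest peak was 308656 bp away. The local background of TAZ-CAMTA1 was at its genome-wide level there, and its summit had 52 fragments against 46 for CAMTA1. Both proteins that hold the carboxy terminus of CAMTA1 were thus high at this site, as was the other fusion.

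The other TFE3 sites were of different kinds. At chr7:27150238-27150974 the 4 constructs were of similar height, where TAZ-CAMTA1 had a fold enrichment of 7.17, YAP5SA 6.90, YAP-TFE3 6.98 and TFE3 7.06, and the TAZ-CAMTA1 and YAP5SA summits were 2 bp apart. At chr5:130970941-130971873 TFE3 reached 4.53 and TAZ-CAMTA1 3.21. The remaining pair stood on very high local background. At chr9:141121872-141123752 the local background was 25.9 times the genome-wide level for TAZ-CAMTA1 and 14 times for YAP5SA, and 117 TAZ-CAMTA1 fragments gave a fold enrichment of only 1.78. At chr4:187353561-187355426 the background was 7.68 and 13.1 times the genome-wide level, with fold enrichments of 2.26 and 2.36. No other YAP5SA-matched site, and none of the triple sites, had a TAZ-CAMTA1 background above 5 times that level. Without this pair 3 sites with TFE3 were left.

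The sites with the highest TAZ-CAMTA1 −log10 q were of moderate height in YAP5SA. In the top 10 TAZ-CAMTA1 fold enrichment was 12.3 to 15.9 and that of YAP5SA 4.68 to 9.62, and TAZ-CAMTA1 was the higher in all 10. The ranking by TAZ-CAMTA1 favoured this order, and over all 325 sites TAZ-CAMTA1 was the higher in 171. YAP-TFE3 peaks were present in 9 of the 10, at 3.67 to 13, and 4 of the 10 lay on chromosome 7. The first by q, chr16:68741230-68741932, was the exception. There TAZ-CAMTA1 had a fold enrichment of 13.6 and 63 fragments, and YAP5SA had 7.26 and 98 fragments, while neither YAP-TFE3 nor TAZ4SA had a peak. The nearest TAZ4SA peak was 115456 bp away, and the summits of the listed proteins were 30 bp apart.

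The next sites by q were shared by both fusions. At chr9:127421345-127422243 TAZ-CAMTA1 had a fold enrichment of 15.9, YAP5SA 6.83 and YAP-TFE3 8.71. At chr16:69563990-69565133 it was 12.3, 4.82 and 11.3 in the same order, so that both fusions stood well above YAP5SA. At chr9:86046758-86047642 TAZ-CAMTA1 had 12.8, YAP5SA 8.33 and YAP-TFE3 4.06, so that only TAZ-CAMTA1 stood above YAP5SA. The TAZ-CAMTA1 and YAP5SA summits were 3 bp apart there. The YAP-TFE3 values of these 3 sites thus ranged more widely than the TAZ-CAMTA1 values, by which they had been selected.

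On chromosome 7 the site chr7:151125507-151126004 had a TAZ-CAMTA1 fold enrichment of 14.3, with 4.68 for YAP5SA and 3.67 for YAP-TFE3. At chr7:2348700-2350144 the values were 14.2, 8.83 and 9.09. At chr7:22600871-22601424 they were 14.1, 8.69 and 5.63. The latter opened a row of 3 sites within 26.1 kb, and all 3 held YAP-TFE3. The others of the top 10 were chr1:157989200-157989795, at 14.2 for TAZ-CAMTA1 and 9.62 for YAP5SA, and chr5:124379380-124380387, at 12.5 and 4.96. The former was far from any TAZ4SA peak, at 4518936 bp.

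Ranked by YAP5SA −log10 q, other sites came first. The highest, chr11:130253349-130253881, had a YAP5SA fold enrichment of 13.3 with 182 fragments, and 8.55 for TAZ-CAMTA1 with 33 fragments. No YAP-TFE3 peak was listed there. At chr20:43321597-43322226 YAP5SA had 11.2 and YAP-TFE3 14.2, against 5.87 for TAZ-CAMTA1, with the TAZ-CAMTA1 and YAP5SA summits 2 bp apart. The other sites of the top 5 were chr5:55641561-55643796, chr13:97907388-97909331 and the high-background site on chromosome 9. At the first 2 of these YAP5SA stood at 11.5 and 10.9 and TAZ-CAMTA1 at only 3.89 and 3.27.

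The ratio of TAZ-CAMTA1 to YAP5SA fold enrichment spanned 0.30 to 3.81. The highest was at chr1:29450908-29451362, with 12.1 for TAZ-CAMTA1 and 3.18 for YAP5SA and no YAP-TFE3 peak. The next were chr7:151125507-151126004 at 3.05 and chr11:65256351-65257214 at 2.88, and the latter had a YAP-TFE3 fold enrichment of 11.0. The lowest ratios were at chr13:97907388-97909331, at chr5:55641561-55643796 with 0.338 and at chr5:125689869-125690700 with 0.405. At these 3 sites the TAZ-CAMTA1 local background was 1.91, 2.56 and 1.45 times its genome-wide level, and that of YAP5SA 1.23, 1.09 and 1.00 times. Local background enters the fold enrichment, and its part in the low ratios was not tested.

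The summits of both proteins coincided closely. The distance between TAZ-CAMTA1 and YAP5SA summits had a median of 32 bp (26 to 41) at YAP5SA-matched sites and 36 bp (32 to 45) at triple sites. It was within 50 bp in 196 of 325 sites, or 60.3% (54.9% to 65.5%), and above 200 bp in 36, or 11.1% (8.11% to 15.0%). At triple sites the shares were 61.3% (55.9% to 66.3%) and 12.9% (9.73% to 16.9%). The TAZ-CAMTA1 summit lay at the lower coordinate in 168 sites, at the higher in 156 and at the same base in 1. Summits of YAP-TFE3 were 34 bp from those of TAZ-CAMTA1 (27 to 42) and 28 bp from those of YAP5SA (24 to 33) in the 203 sites with all 3 peaks. The lack of a TAZ4SA peak was thus not accompanied by a wider separation of the other summits.

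**Figure D4:**
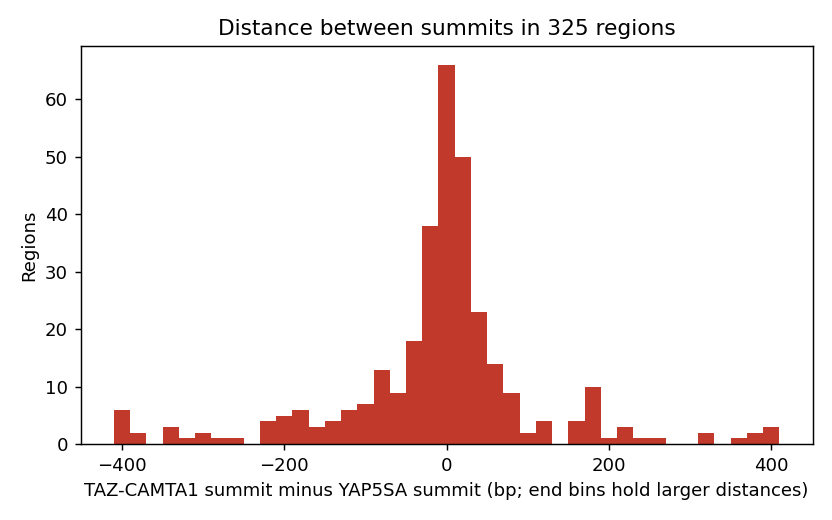
Histogram of the TAZ-CAMTA1 summit position minus the YAP5SA summit position in bp (horizontal; end bins hold larger distances) over 325 regions without TAZ4SA, with the number of regions on the vertical axis. The distances centre on 0 to both sides, and 196 of 325 lie within 50 bp.

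Higher peaks had closer summits. Spearman's rho between fold enrichment and summit distance was -0.311 for TAZ-CAMTA1 and -0.374 for YAP5SA over 325 sites, where few fragments also place a summit less exactly. The merged regions had a median width of 550 bp (526 to 569), against 793 bp (750 to 847) for triple sites. TAZ-CAMTA1 peaks were 397 bp wide (382 to 430) and YAP5SA peaks 352 bp (335 to 379). At triple sites the widths were 508 bp (476 to 547) and 564 bp (533 to 596), so that YAP5SA peaks were the narrower at YAP5SA-matched sites and the wider at triple sites. The narrowest TAZ-CAMTA1 peak at YAP5SA-matched sites was 258 bp wide and the narrowest YAP5SA peak 196 bp. The part of these lower limits in the median widths was not tested. In 1 of the 325 sites the peaks of both proteins did not touch and were joined through a peak of another construct.

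Overlap with a TAZ4SA peak was excluded by the choice of regions. YAP5SA-matched sites lay within 10 kb of one about as often as all TAZ-CAMTA1 or YAP5SA regions without TAZ4SA. The nearest TAZ4SA peak was a median of 274466 bp away (206443 to 372113), and none was within 1 kb, which allows a share of up to 0.923% by the same limit of 3 sites. It was within 10 kb of 20 sites, or 6.15% (4.02% to 9.31%), against 6.3% of all TAZ-CAMTA1 regions without TAZ4SA and 7.9% of all YAP5SA regions without TAZ4SA. Within 1 kb lay 2.77% (1.63% to 4.68%) of TAZ-CAMTA1 regions with neither active parent and 1.31% (0.938% to 1.82%) of regions with YAP5SA alone. Within 100 kb of the YAP5SA-matched sites the count was 104, or 32.0% (27.2% to 37.3%), against 25.6% (21.8% to 29.7%) and 31.6% (29.9% to 33.4%) in the same classes. The nearest cases were chr8:37002190-37002591 at 1131 bp, chr15:67397576-67398320 at 1162 bp and chr15:67401514-67402176 at 1664 bp, and all 3 held YAP-TFE3. The median distance was 441159 bp (362361 to 574045) in the former class and 268615 bp (249742 to 299976) in the latter, so that the YAP5SA-matched sites lay close to the regions with YAP5SA alone in this measure.

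YAP5SA-matched sites were found on all 23 chromosomes analysed. Chromosome 7 held 37, or 11.4% (8.37% to 15.3%), against 9.85% of all TAZ-CAMTA1 regions. Chromosome 5 held 36, or 11.1% (8.11% to 15.0%), against 8.32% of TAZ-CAMTA1 and 18.4% of YAP5SA regions. Chromosome 20 held 16, or 4.92% (3.05% to 7.85%), against 6.03% and 7.77%. The interval on chromosome 5 lay below the YAP5SA share. With the YAP5SA list limited to its 1166 peaks of highest −log10 q the chromosome held 21 of 143 sites, or 14.7% (9.81% to 21.4%). The 18.4% of the full list lay inside that interval, but the share of the limited list was not computed. Over the 325 sites, the median TAZ-CAMTA1 local background was 1.57 times the genome-wide level on chromosome 5. It was 1.92 times on chromosome 13 and 1.00 times on chromosome 1. The part of local background in the distribution over chromosomes was not tested.

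**Figure D5:**
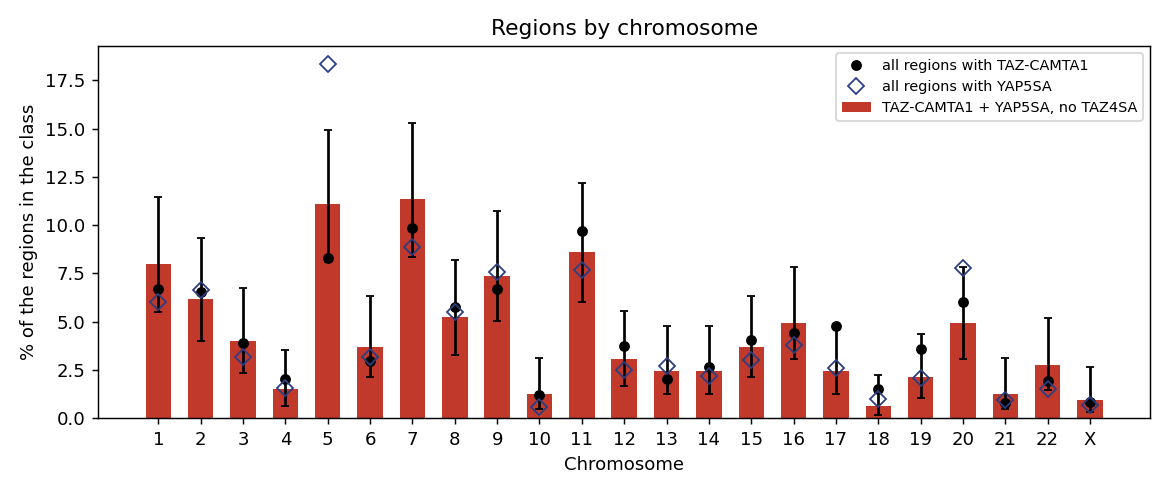
Percent of regions on each chromosome, for regions with TAZ-CAMTA1 and YAP5SA but no TAZ4SA (red bars with 95% Wilson intervals, from 0), all TAZ-CAMTA1 regions (filled circles) and all YAP5SA regions (open diamonds). On chromosome 5 the bar is at 11.1%, and the diamond is at 18.4%, above the interval of the bar.

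The balance of YAP5SA-matched and triple sites varied between chromosomes. On chromosome 6, 12 of 16 regions with TAZ-CAMTA1 and YAP5SA lacked TAZ4SA, or 75% (50.5% to 89.8%), and on chromosome 1 26 of 42, or 61.9% (46.8% to 75%). On chromosome 17 it was 8 of 28, or 28.6% (15.3% to 47.1%), and on chromosome 20 16 of 41, or 39.0% (25.7% to 54.3%). These chromosomes were named after their values were seen, and variation beyond counting error was not tested. The share over all chromosomes, 49.4%, lay below the interval of chromosome 6 and above that of chromosome 17. It lay inside the intervals of all other chromosomes.

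Some sites lay in groups. Within 100 kb of another were 50 of 325, or 15.4% (11.9% to 19.7%), against 22.8% (18.6% to 27.6%) of triple sites. These 50 formed 18 pairs and 4 longer groups. Within 10 kb the shares were 4.92% (3.05% to 7.85%) and 4.50% (2.75% to 7.30%). The intervals overlapped at both distances. On chromosome 7 a pair at 134427070 to 134464569 held YAP-TFE3 at both sites, with a TAZ-CAMTA1 fold enrichment of 5.33 and 12.8 and a nearly equal YAP5SA fold enrichment of 8.59 and 8.55. On chromosome 16 the strongest site by TAZ-CAMTA1 q was paired within 83.3 kb with a site of only 4.46, and neither held YAP-TFE3. Both pairs were picked after their values were seen. The largest group was 5 sites in 137.5 kb on chromosome 13, from 97774093 to 97911593, and all 5 held YAP-TFE3. From the lowest to the highest coordinate, TAZ-CAMTA1 fold enrichment was 4.28, 4.96, 2.72, 3.27 and 3.92. That of YAP5SA was 6.03, 8.96, 4.32, 10.9 and 5.72 in the same order, above TAZ-CAMTA1 at every site of the group. The nearest TAZ4SA peak was 15373 bp from the last site. The TAZ-CAMTA1 local background was 1.91 to 3.98 times its genome-wide level in this group, and that of YAP5SA 1.17 to 1.33 times. The part of background in these low TAZ-CAMTA1 values was not tested.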

How the data were processed

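SW872 cells were analysed by chromatin immunoprecipitation and sequencing in 34 libraries: 18 Flag and 2 IgG immunoprecipitations and 14 inputs. The authors pooled replicates, trimmed reads with Atropos, aligned them to GRCh37 with BWA-MEM, and called peaks with macs2 at q of 0.1. The submitters' processing notes name hg38, but 45 of 9899 peaks ended past the supplied GRCh38 chromosomes, so positions were taken as GRCh37. Base sequence, genes and motifs were not analysed here, since no GRCh37 genome was used. Which controls set the background is not given in the sources used here.

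The deposited lists give fold enrichment (a ratio), p-value and q-value as −log10 values, a summit offset and a display score, which was not used. The 7 lists held 10414 peaks, of which 515 on scaffolds were left out. Fragments and local background at a summit were recovered from fold enrichment and p-value, which have a single whole-number solution in 99.3% to 100% of peaks per construct list. The recovery and the merging were tested on simulated data. The regions and all measures were chosen with earlier results of these data known. Sites were named by fixed rules: the top 10 by TAZ-CAMTA1 and top 5 by YAP5SA −log10 q, the 3 highest and 3 lowest ratios of fold enrichment, the 3 nearest to TAZ4SA, those with CAMTA1 or TFE3, and those with the lowest q. Values were computed in Python 3.11.15 with pandas 2.3.3, scipy 1.17.1 and numpy 2.4.6, and drawn with matplotlib 3.10.9.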

Additional observations from a re-analysis of the deposited data

How the results depend on the processing

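Of 50 alternatives run over 10 results, 45 stayed within the interval of the value or within 1.5 times the number of sites. The alternatives were 50% reciprocal overlap, merging of peaks up to 500 bp apart, q below 0.01 in all 6 lists or in the TAZ-CAMTA1 and YAP5SA lists only, and a YAP5SA list reduced to the 1166 peaks of highest −log10 q, as many as TAZ4SA had. The last moved 5 results: 143 sites were left, 72.0% of them held YAP-TFE3, median fold enrichment was 5.85 for TAZ-CAMTA1 and 6.97 for YAP5SA, and the median summit distance was 20 bp. The lower number of sites and the higher YAP5SA fold enrichment follow from the removal of weaker YAP5SA peaks. The part of that removal in the other moved results was not tested. Reciprocal overlap kept 226 of the 325 sites, and q below 0.01 in all lists kept 299. No paired analysis was possible because each construct has 1 list, made from all its replicates by the authors, so leaving out a replicate was not possible either. The absence of TAZ4SA is limited by its threshold, since a signal at 0.5 of the TAZ-CAMTA1 height would have been listed at 95 of 325 sites.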
